A study of Mus musculus with 6 samples.

Results

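Tail-to-tail pairs of strong cleavage clusters are places where RNA from both DNA strands is cleaved and polyadenylated at short distance, each strand running toward the other. They were taken from 3′ end sequencing of V6.5 cells, a mouse embryonic stem cell line of C57BL/6-129 background. There were 3 groups of 2 libraries: cells given an antisense morpholino oligonucleotide (AMO) against U1, cells given a scrambled AMO, and cells with no treatment. Replicates 1 and 2 had 15752080 and 57925358 reads for the U1 AMO, 26846406 and 62257923 reads for the scrambled AMO, and 38569397 and 60473882 reads for untreated cells. All groups share the cell line and the library protocol, and only the U1 AMO and scrambled AMO groups had an AMO delivered.

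Same-strand positions of the 6 libraries that lay no more than 24 nt apart were merged, which gave 931675 clusters outside chromosome M. Of these, 14195 averaged 5 CPM or more across libraries, where CPM is the read count scaled to the total of the library. A pair consists of 1 plus-strand and 1 minus-strand cluster of this strength, each the nearest opposite-strand one to the other, with peaks at most 1000 nt apart. The peak is the position with the highest mean CPM. There were 446 such pairs with 892 clusters, 6.28% of the 14195. In 334 pairs the minus-strand peak lay to the right of the plus-strand peak, so that transcripts cleaved at the peaks end before they meet (gap pairs). In 110 pairs it lay to the left, so that transcripts cleaved at the peaks share sequence at their ends (overlap pairs). In 2 pairs both peaks fell on the same coordinate. These classes rest on the peaks alone. The clusters themselves overlapped in coordinates in 63 of all pairs (14.1%), among them gap pairs such as chr2:130105043. The pairs were thus chosen by their mean CPM over all libraries and by the distance between peaks, and these values are given as descriptions, without a test.

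The 3′ end of most messenger RNAs is made by cleavage some bases after a poly(A) signal, a hexamer of which AATAAA is the commonest form and ATTAAA the next. The signal is read in the RNA, so a stretch of DNA can hold a signal for each strand. Convergent genes end toward one another, and their cleavage sites can lie close together or pass one another. The U1 particle binds 5′ splice sites during splicing, and it also keeps nascent transcripts from being cut early at signals within genes.

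Every deposited position carries its hexamer and the distance from the hexamer to the position. Coordinates are those of build mm9, with the plus-strand peak named first for each pair. No annotation of that build was used here, so clusters are given by position, not by gene, and markers of embryonic stem cells were not looked up. The letters of plus-strand and minus-strand hexamers could be laid over each other where they cover the same DNA. At 1 offset, 5563 of 5563 compared bases were complementary between the strands, and the best of 24 other offsets gave 47.9%. Distances between opposing peaks assume that the deposited coordinate means the same base on both strands.

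The signals of the 2 strands used the same bases in 7 pairs, all overlap pairs with peaks 34 to 42 nt apart. These stretches are shown because a single 8 or 9 nt run of DNA carries the signal of both transcripts. Each is written 5′ to 3′ on the plus strand, from the first base of one hexamer to the last base of the other. Capitals mark bases inside a hexamer. The minus-strand signal is the reverse complement of the first letters where the minus-strand hexamer comes first.
chr12:4213500-4213508: TTTATTAAA
chr8:108222073-108222081: TTTATTAAA
chr1:39428726-39428734: TTTATTAAA
chr16:57156796-57156804: TTTAATAAA
chr5:108337999-108338007: TTTAATAAA
chr7:25086864-25086871: TTTATTAA
chr11:51437191-51437198: AATATATT
In TTTATTAAA the plus strand reads ATTAAA and the minus strand AATAAA, and in TTTAATAAA the roles are exchanged. Both hexamers are thus read from the same 9 nt with an offset of -3 nt in 5 of the 7 pairs. The stretch on chromosome 7 pairs TATTAA with AATAAA, and that on chromosome 11 holds AATATA on both strands, the plus-strand one first. In a further 20 pairs the signals shared no base but lay adjacent or within 6 nt of each other. Stretches from 7 pairs with short spacers show how closely the 2 signals can stand, with bases outside the hexamers in lower case.
chr6:72309722-72309736: TTTATAtctATTAAA
chr5:135488012-135488024: TTTAATgAATAAA
chr14:8997602-8997615: TTTATTaaAATAAA
chr11:4041141-4041157: TTTAATagtaaAATAAA
chr7:86842998-86843009: TTTATTATTAAA
chr11:20126430-20126441: AATATATTTATT
chr11:32132677-32132688: AATAAATATATT
The first 5 have the minus-strand signal upstream of the plus-strand one, so that each transcript runs through its own signal after that of the other strand. The last 2 have the plus-strand signal first.

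The order of the signals differed from the order of the peaks in part of the overlap pairs. In gap pairs the minus-strand signal lay downstream of the plus-strand signal in 334 of 334, which the peak order fixes, since no deposited distance was under 6 nt. In overlap pairs it lay upstream in 75, shared bases in 7 and was downstream in 28. In these 28 pairs the peaks had passed each other while the signals had not.

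Distances between opposing peaks were not spread evenly. Gap pairs had a median distance of 344.5 nt (range 1 to 993 nt, quartiles 102.25 and 606.0 nt). Overlap pairs had a median of 69.5 nt (range 2 to 987 nt, quartiles 34.0 and 257.0 nt). Of the overlap pairs, 46 (41.8%) had peaks at most 50 nt apart, against 36 gap pairs (10.8%). An overlap of 20 to 50 nt was found in 36 pairs, and one of under 20 nt in 10. From 0 to 9 nt there were 22 pairs, and from 10 to 49 nt there were 15. Among mutually nearest strong clusters farther apart, at 1001 to 2000 nt, gaps outnumbered overlaps by 158 to 15, compared with 334 to 110 within 1000 nt.

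**Figure D1:**
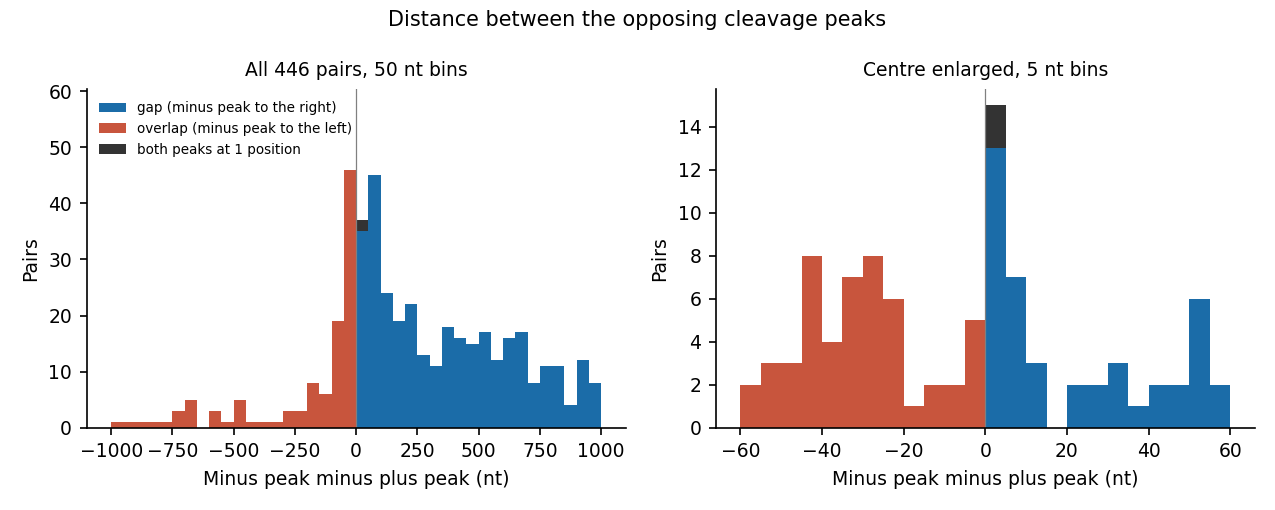
Number of pairs by the signed distance from the plus-strand to the minus-strand peak in nt, in 50 nt bins (left) and in 5 nt bins near 0 (right), with colours for gap pairs, overlap pairs and the 2 pairs at 1 position. Overlaps gather within 50 nt (46 of 110), with 36 pairs at 20 to 50 nt, and a second group of 22 pairs lies at 0 to 9 nt, while gaps reach 993 nt.

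The 22 pairs at 0 to 9 nt had their signals outside and the cleavage peaks facing each other in between. The peak order fixes this layout, since no deposited distance was under 6 nt. The span of the signals is likewise set by the distances from hexamer to peak, with a median of 20 nt here, and the distance between peaks. The span from the outer end of one hexamer to the outer end of the other had a median of 41.5 nt (range 34 to 58 nt). In 14 of the 22 both strands carried AATAAA, and 36 of the 44 clusters did (81.8%). The 2 pairs with both peaks at 1 coordinate were at chr19:6227767, with AATAAA on both strands, and at chr4:100824973, with ATTAAA on the plus and AATAAA on the minus strand. At chr19:6227767 the plus arm had 10.7 and 8.61 CPM with the U1 AMO, 9.28 and 7.12 CPM with the scrambled AMO and 7.36 and 1.06 CPM untreated. Its minus arm had 15.6 and 27.6 CPM with the U1 AMO, 22.5 and 34.6 CPM with the scrambled AMO and 10.6 and 16.4 CPM untreated. Both arms were thus detected in each of the 6 libraries, and in both arms the U1 AMO and scrambled AMO values overlapped.

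**Figure D2:**
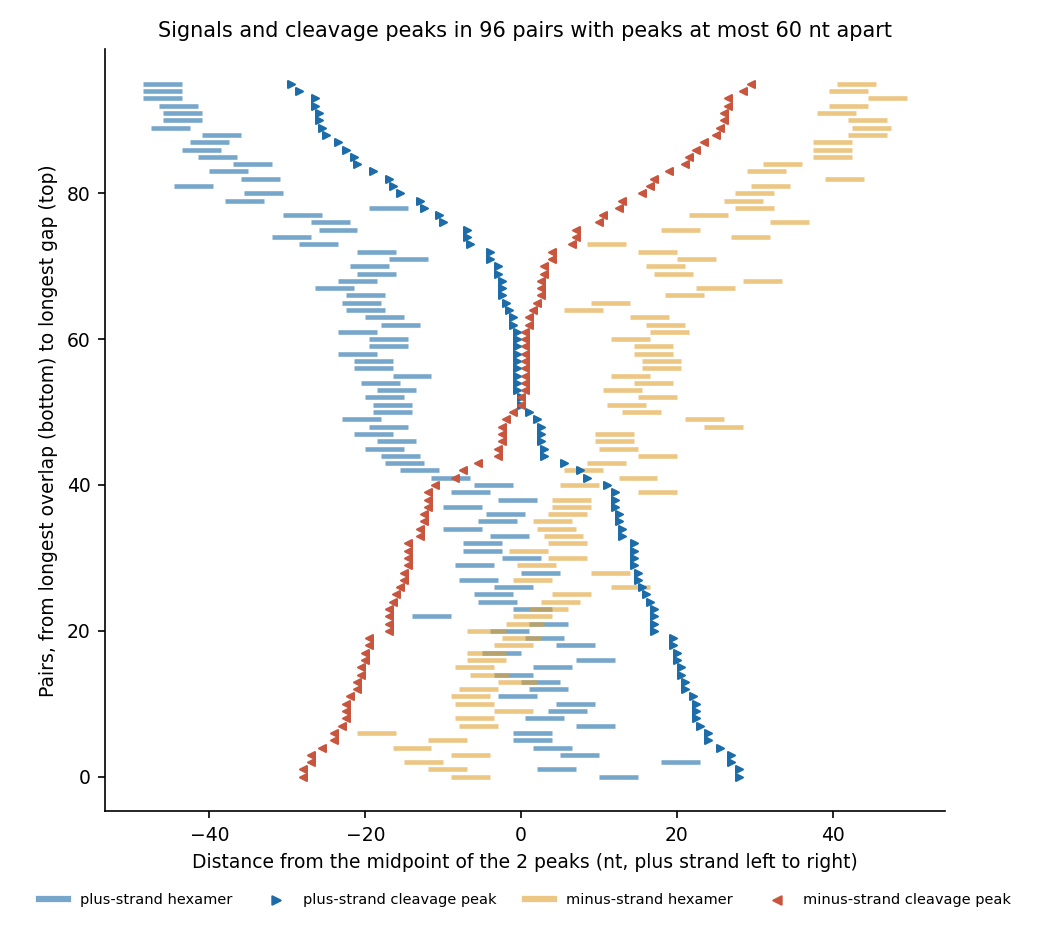
Position of the hexamers (bars) and cleavage peaks (triangles) of both strands in the 96 pairs with peaks at most 60 nt apart, as distance in nt from the midpoint of the 2 peaks, 1 pair per row from the longest overlap (bottom) to the longest gap (top). Signals stand outside the peaks in gap pairs, which the peak order fixes, and move to the centre in overlap pairs. Among overlap pairs, 7 with overlaps of 34 to 42 nt have signals on shared bases.

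The closest pairs outside these 2 stood 1 nt apart. At chr5:135852012 the plus arm had 19.6 and 38.8 CPM with the U1 AMO, 18.0 and 53.1 CPM with the scrambled AMO, and 11.2 and 15.2 CPM untreated. Its minus arm, with its peak 1 nt to the right, had 111 and 143 CPM with the U1 AMO, 87.0 and 99.6 CPM with the scrambled AMO, and 150 and 131 CPM untreated. The minus arm was the higher one in all 6 libraries. At chr2:32110523 the plus arm kept a narrow range, with 15.1 and 11.9 CPM with the U1 AMO, 15.6 and 18.4 CPM with the scrambled AMO, and 18.8 and 16.2 CPM untreated. The minus arm of that pair had 52.9 and 37.5 CPM with the U1 AMO, 44.2 and 33.8 CPM with the scrambled AMO, and 0.0259 and 18.6 CPM untreated. A single read was found for it in untreated replicate 1, so the arms of 1 pair differed there by far more than in the other 5 libraries. Among overlap pairs, chr2:174252998 had the shortest distance, 2 nt, with AATAAA on the plus and AGTAAA on the minus strand.

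The arms of a pair were unequal in most cases, and the level of one said little about the other. The weaker arm held a median of 24.7% of the reads of its pair (range 0.485% to 49.7%). It held less than 10% in 80 pairs (17.9%) and 40% or more in 81 (18.2%). Mutually nearest pairs over 1000 nt apart were much alike. Their weaker arm held a median of 25.3%, with less than 10% in 18.8% of pairs and 40% or more in 21.7%. The plus arm was the stronger in 219 of 446 pairs (49.1%). The correlation of the arms' log2 levels across the 446 pairs was r = 0.06, and across the 2124 mutually nearest pairs over 1000 nt apart it was r = 0.01. Pairs are not replicates, and the 2 arms share their libraries. In 20 pairs (4.48%) both arms reached 100 CPM. Pairs just inside the level limit included chr11:45761481, with 5.04 CPM in its weaker arm, and just outside it chr7:148395954 had 4.98 CPM. The longest gap inside the distance limit was 993 nt, at chr16:33015722, and the next pair outside it was at 1011 nt, at chr5:114572933.

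**Figure D3:**
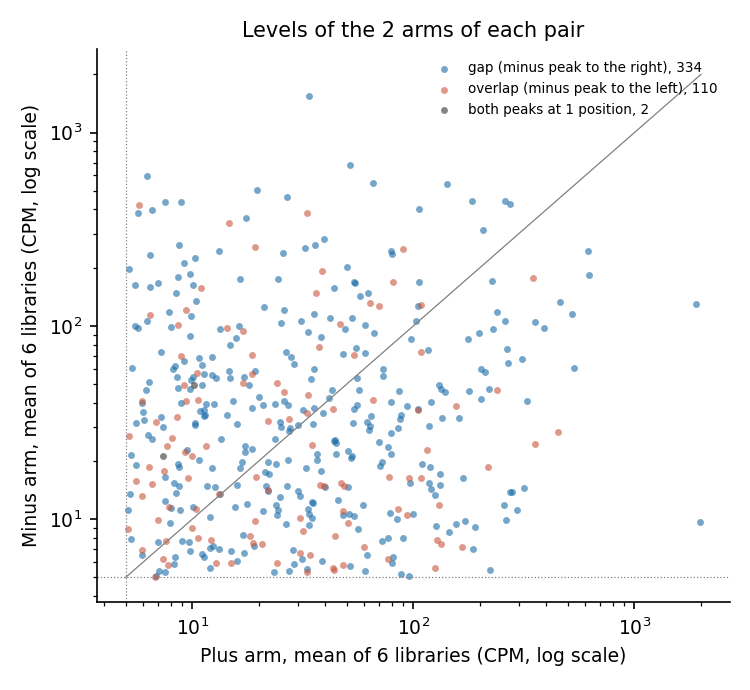
Mean level over 6 libraries of the minus arm against the plus arm of each of the 446 pairs, in CPM on log scales, with the 5 CPM limit dotted and equal levels on the diagonal. Points fill the plane above the limit on both sides of the diagonal, with the plus arm stronger in 219 pairs.

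The 5 pairs with the highest weaker arm in each class had peaks 6 to 803 nt apart among gap pairs and 15 to 718 nt apart among overlap pairs. At chr8:86095522, a gap pair 77 nt apart with AATAAA on both strands, the plus arm had 311 and 326 CPM with the U1 AMO, 297 and 351 CPM with the scrambled AMO, and 230 and 131 CPM untreated. Its minus arm had 396 and 532 CPM with the U1 AMO, 240 and 573 CPM with the scrambled AMO, and 620 and 186 CPM untreated. The plus arm was higher in all 4 AMO libraries than in the untreated ones, and the minus arm overlapped between all groups. At chr11:94506530, an overlap pair of 214 nt, the plus arm had 342 and 292 CPM with the U1 AMO, 399 and 263 CPM with the scrambled AMO, and 472 and 319 CPM untreated. Its minus arm had 128 and 177 CPM with the U1 AMO, 170 and 212 CPM with the scrambled AMO, and 240 and 138 CPM untreated, so that the groups overlapped in both arms.

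Signals of paired clusters were AATAAA in 69.96% and ATTAAA in 15.7% of the 892 clusters. In the 13303 equally strong clusters outside pairs the shares were 65.02% and 17.64%. Gap pairs had AATAAA in 70.96% of clusters and overlap pairs in 66.82%. Both arms carried it in 211 pairs (47.3%), in 1036 of the 2124 pairs farther apart (48.8%), and neither arm did in 33 pairs (7.40%). The distance from hexamer to peak had a median of 21 nt in paired clusters and in those outside pairs. These shares were not tested, since clusters of 1 set of libraries are not replicates.

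Paired clusters took a similar part of the RNA ends in each group. They held 5.82% and 6.28% of all reads with the U1 AMO, 6.10% and 6.59% of those with the scrambled AMO, and 6.40% and 6.19% untreated. Group means were 6.05% ± 0.326 for the U1 AMO and 6.35% ± 0.345 for the scrambled AMO (SD, n = 2 each), and the exact two-sided permutation test gave p = 0.667. This exact test cannot go below p = 0.333 with 2 libraries against 2. Within a replicate number the share was lower with the U1 AMO by a similar amount, with differences of -0.283 and -0.311 percentage points. The median share of the weaker arm was 24% and 23.2% with the U1 AMO, 24.1% and 23.0% in scrambled AMO libraries, and 24.1% and 22.3% untreated (U1 AMO against scrambled AMO, exact permutation p = 1). Overlap pairs held 17.4% and 17.2% of the paired reads with the U1 AMO, 18.2% and 17.0% in scrambled AMO libraries, and 17.7% and 19.3% untreated (exact permutation p = 1).

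The comparison of U1 AMO with scrambled AMO asked which paired clusters change on inhibition of U1. A single cluster was called higher, the minus arm at chr11:74978071, and none lower among the 892. That cluster averaged 1.56 CPM in the other 4 libraries, so it met the 5 CPM limit only through the U1 AMO libraries, and its rise is a description set by the way the pairs were chosen. Of the 892 clusters, 7 met the limit only through the U1 AMO libraries in this way, 8 only through the scrambled AMO libraries and 32 only through the untreated ones. Calls are Benjamini-Hochberg adjusted p-values under 0.05 over all clusters tested, from the quasi-likelihood test of edgeR on counts, with all 6 libraries in 1 fit. All 892 clusters passed the filter on low counts. Rises made up 0.667% of all clusters tested and 0.977% of strong clusters outside pairs, against 0.112% of paired clusters. No cluster fell in any of these sets in that fit, and 5 paired clusters had an unadjusted p under 0.05 (0.561%, against 2.65% of strong clusters outside pairs and 8.89% of all tested). The minus arm at chr11:74978071 had 19.9 and 15.9 CPM with the U1 AMO, 1.42 and 1.75 CPM with the scrambled AMO, and 1.58 and 1.47 CPM untreated. The plus arm at chr11:74977948, 123 nt to its left, had 11.05 and 8.67 CPM with the U1 AMO, 10.7 and 7.65 CPM with the scrambled AMO, and 18.7 and 22.8 CPM untreated. Both arms carry AATAAA, and the groups of the minus arm did not overlap.

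The U1 AMO and scrambled AMO libraries of the same replicate number came from the same sequencing run, as the read names in the files show. Replicate 1 of the 2 groups shared a lane, replicate 2 was in separate lanes, and each untreated library had a run of its own. With the run as a term, a fit of the 4 AMO libraries called 22 paired clusters higher and 94 lower. In that fit 13.4% of all clusters tested were called higher and 2.34% lower. Among strong clusters outside pairs the shares were 5.65% higher and 8.54% lower, and among paired clusters 2.47% and 10.5%. Of the 22 paired clusters called higher, 4 met the 5 CPM limit only through the U1 AMO libraries, and of the 94 called lower, 3 met it only through the scrambled AMO libraries. The median log2 fold change was -0.18 in paired clusters, -0.15 in strong clusters outside pairs and 0.01 over all clusters tested. The fit leaves 1 residual degree of freedom, and its common dispersion was 0.0242, against 0.329 with all 6 libraries.

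The clusters called higher in this fit included some very abundant ends. None of the clusters given here from this fit, higher or lower, was called in the fit of all 6 libraries. The plus arm at chr8:73301476 (ATTAAA) had 44.4 and 30.9 CPM with the U1 AMO, 17.2 and 13.1 CPM with the scrambled AMO, and 12.5 and 7.24 CPM untreated. Its log2 fold change was 1.28 (SE 0.16, edgeR adjusted p = 1.07e-07 with run as a term). Its minus arm, 541 nt away, had 8.51 and 8.15 CPM with the U1 AMO and 6.56 and 9.17 CPM with the scrambled AMO, which overlapped. The plus arm at chr19:10282312 had 40.1 and 22.3 CPM with the U1 AMO, 17.9 and 13.3 CPM with the scrambled AMO, and 12.9 and 5.57 CPM untreated, a log2 fold change of 0.93 (SE 0.17, edgeR adjusted p = 4.9e-05). At chr4:129193218 the plus arm had 839 and 876 CPM with the U1 AMO, 557 and 491 CPM with the scrambled AMO, and 588 and 400 CPM untreated. The plus arm at chr2:130105043, whose partner stands 6 nt away, had 1001 and 914 CPM with the U1 AMO, 609 and 574 CPM with the scrambled AMO, and 424 and 185 CPM untreated. That partner had 281 and 268 CPM with the U1 AMO, 237 and 293 CPM with the scrambled AMO, and 235 and 148 CPM untreated. The plus arm was thus higher with the U1 AMO in both runs (log2 fold change 0.67, SE 0.14, edgeR adjusted p = 0.000312), while the partner's values overlapped (log2 fold change 0.04, edgeR adjusted p = 0.924).

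The falls in this fit were modest, with a median log2 fold change of -0.57 and a range of -0.90 to -0.40. In 66 of the 94 (70.2%) the U1 AMO libraries were both below the scrambled AMO ones, as in 69.8% of the strong clusters outside pairs that were called lower. Called or not, this order was found in 233 of the 892 paired clusters (26.12%) and in 3198 of the 13303 outside pairs. A call as lower itself favours this order. The minus arm at chr19:4622595 (ATTAAA) had 23.1 and 42.1 CPM with the U1 AMO, 51.3 and 60.6 CPM with the scrambled AMO, and 56.6 and 100 CPM untreated (log2 fold change -0.85, SE 0.16, edgeR adjusted p = 0.000142). The minus arm at chr14:56297939 had 20.4 and 27.0 CPM with the U1 AMO, 37.1 and 39.0 CPM with the scrambled AMO, and 37.5 and 27.6 CPM untreated. Its partner at chr14:56297578 fell with it: it had 37.2 and 62.5 CPM with the U1 AMO and 53.4 and 88.1 CPM with the scrambled AMO, with groups that overlapped (edgeR adjusted p = 0.00908). The minus arm at chr17:23812414 had 22.9 and 14.0 CPM with the U1 AMO, 63.6 and 12.9 CPM with the scrambled AMO, and 12.7 and 44.6 CPM untreated. Its groups overlapped, and its log2 fold change was -0.70 (SE 0.22, edgeR adjusted p = 0.0225 with run as a term). Without a run term the log2 fold change was -1.05 with all 6 libraries. It was 0.36, the opposite direction, when scrambled AMO replicate 1 was left out of that fit.

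With run as a term, both arms were called in 8 of the 446 pairs (1.79%), 1 arm in 100 (22.4%) and neither in 338. Among the 2124 pairs over 1000 nt apart, both arms were called in 42 (1.98%) and 1 arm in 498 (23.4%). Of the 8 pairs with both arms called, 6 had both changes in the same direction. Of the 100 with a single arm called, it was the stronger arm in 55. Across the 446 pairs the log2 fold changes of the 2 arms correlated at r = 0.02, and across the 2124 pairs over 1000 nt apart at r = 0.05. Both arms lay on the same side of the median of strong clusters in 51.1% of the pairs and in 52.2% of those farther apart. These are descriptions over pairs measured in the same libraries.

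**Figure D4:**
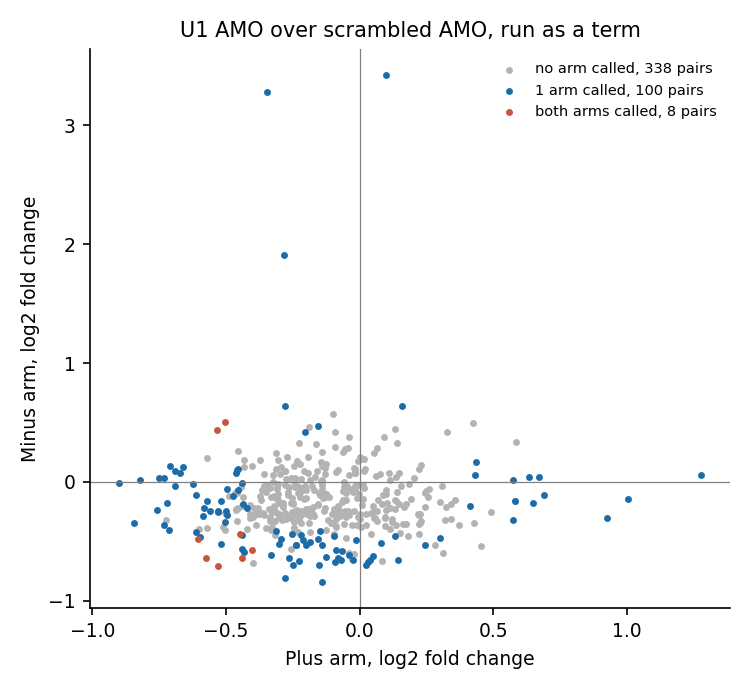
Log2 fold change of the minus arm against that of the plus arm, U1 AMO over scrambled AMO, in the 446 pairs from the fit of 4 AMO libraries with run as a term, coloured by how many arms were called. The cloud has no slope (r = 0.02), 8 pairs have both arms called and 100 have 1, and the 3 minus arms far above the rest are ones that met the 5 CPM limit only through the U1 AMO libraries.

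Whether the balance between the arms shifts was tested on the log2 ratio of plus to minus arm, with limma over all 2570 mutually nearest pairs. Library size enters this ratio only through the 0.5 CPM added to each arm. For U1 AMO against scrambled AMO, limma with all 6 libraries called no pair among the 446 or the 2570 (0% of both). An unadjusted p under 0.05 was found in 4 of the 446 pairs, against 81 of all 2570 and 77 of the 2124 over 1000 nt apart. With run as a term limma called 18 (4.04%), 9 in each direction, against 8.64% of all 2570 pairs and 9.60% of the pairs over 1000 nt apart. The 3 largest shifts in this fit were in pairs whose minus arm averaged under 5 CPM without the U1 AMO libraries: 1.41 CPM on chr18, 1.56 CPM on chr11 and 3.21 CPM on chr9. These arms met the level limit only through the U1 AMO libraries, so their values are given as descriptions, without a test. At chr18:32066910, an overlap pair of 987 nt, the minus arm had 15.9 and 25.4 CPM with the U1 AMO, 1.90 and 2.28 CPM with the scrambled AMO, and 1.04 and 0.413 CPM untreated. Its plus arm had 6.79 and 14.3 CPM with the U1 AMO, 8.61 and 17.8 CPM with the scrambled AMO, and 16.7 and 8.98 CPM untreated. The plus arm thus held 29.97% and 35.9% of the pair with the U1 AMO, 81.9% and 88.6% in scrambled AMO libraries, and 94.1% and 95.6% untreated.

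At chr11:74977948 the plus arm held 35.7% and 35.3% of the pair with the U1 AMO, 88.3% and 81.4% in scrambled AMO libraries, and 92.2% and 93.9% untreated. At chr9:106783316, an overlap pair of 62 nt, the minus arm had 10.9 and 8.86 CPM with the U1 AMO, 2.94 and 2.25 CPM with the scrambled AMO, and 3.42 and 4.23 CPM untreated. Its plus arm had 34.3 and 29.1 CPM with the U1 AMO, 44.8 and 32.1 CPM with the scrambled AMO, and 44.5 and 78.9 CPM untreated, so the plus arm stayed the stronger one in all 6 libraries. In the other direction, in pairs whose arms met the limit without the U1 AMO libraries, the plus arm at chr8:73301476 gained by 1.18 (SE 0.23, limma adjusted p = 0.00384), and at chr5:108338023, one of the pairs with shared signal bases, by 0.89 (SE 0.24, limma adjusted p = 0.0337). There the plus arm had 118 and 72.7 CPM with the U1 AMO, 96.2 and 56.4 CPM with the scrambled AMO, and 55.1 and 60.6 CPM untreated. The minus arm of that pair had 4.83 and 5.18 CPM with the U1 AMO, 8.61 and 6.71 CPM with the scrambled AMO, and 5.11 and 7.08 CPM untreated.

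**Figure D5:**
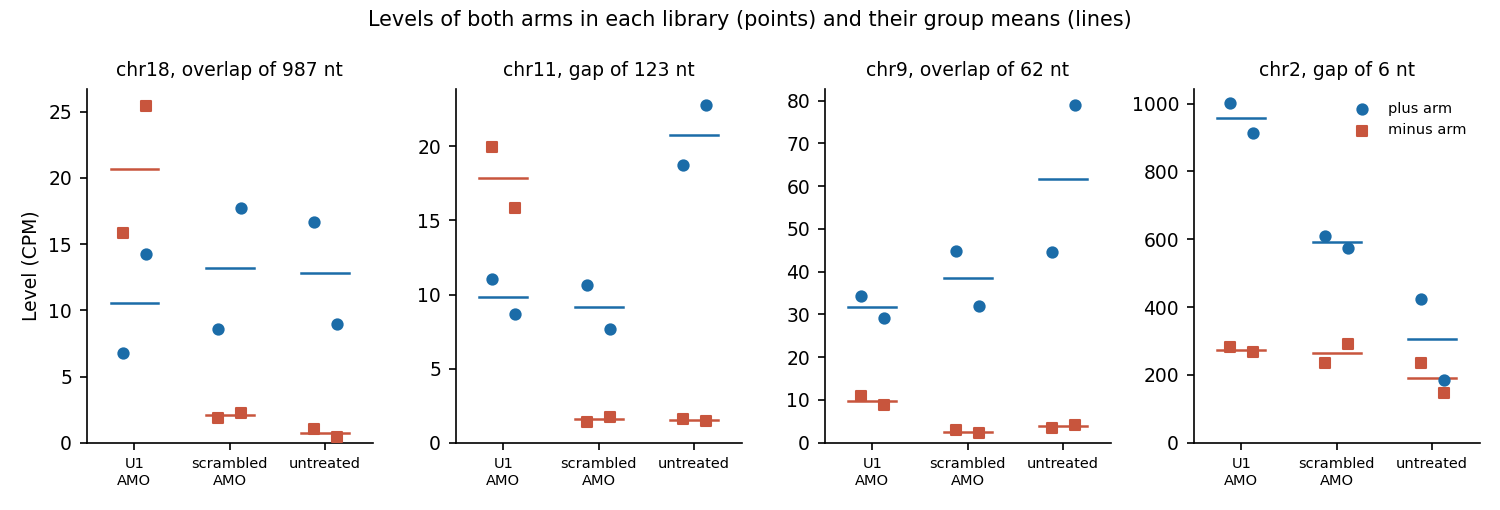
Levels in CPM of the plus arm (circles) and minus arm (squares) in each library of 4 pairs, by group, with lines at the group means of 2 libraries. The minus arms on chr18, chr11 and chr9 met the 5 CPM limit only through the U1 AMO libraries, where those on chr18 and chr11 exceed their plus arms (15.9 and 25.4, and 19.9 and 15.9 CPM) and that on chr9 stays below its own, and on chr2 the plus arm is highest with the U1 AMO.

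The median size of the log2 shift, U1 AMO against scrambled AMO, was 0.22 in the 84 pairs with peaks at most 50 nt apart, 0.24 in the 122 at 51 to 200 nt, 0.26 in the 240 at 201 to 1000 nt and 0.26 in the 2124 farther apart. Shifts of at least 2-fold made up 1.19% to 3.28% of the pairs in the 3 classes within 1000 nt and 6.45% of those farther apart. With run as a term, 2, 6, 10 and 204 pairs of these classes were called, from the closest to the farthest, which is 2.38%, 4.92%, 4.17% and 9.60%. Both shares were highest in the farthest class, and whether the classes differ was not tested.

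The pairs that share signal bases varied in level between libraries. At chr12:4213524 the plus arm had 5.71 and 12.5 CPM with the U1 AMO, 11.96 and 14.1 CPM with the scrambled AMO, and 38.3 and 48.7 CPM untreated. Its minus arm had 29.1 and 37.2 CPM with the U1 AMO, 36.1 and 39.5 CPM with the scrambled AMO, and 26.2 and 25.5 CPM untreated. The stronger arm was thus the minus one in all 4 AMO libraries and the plus one in both untreated libraries. At chr7:25086891 the plus arm had 0.508 and 99.9 CPM with the U1 AMO, 12.6 and 56.9 CPM with the scrambled AMO, and 24.2 and 3.34 CPM untreated, a wider range between replicates than between groups. Its minus arm had 3.87 and 5.63 CPM with the U1 AMO, 4.54 and 7.21 CPM with the scrambled AMO, and 4.41 and 6.45 CPM untreated. At chr1:39428753 the plus arm had 42.9 and 43.5 CPM with the U1 AMO, 44.3 and 46.9 CPM with the scrambled AMO, and 30.9 and 56.3 CPM untreated. The minus arm there had 8.44 and 8.10 CPM with the U1 AMO, 5.81 and 5.19 CPM with the scrambled AMO, and 9.75 and 11.49 CPM untreated, without overlap between the groups (U1 AMO against scrambled AMO, log2 fold change 0.57, edgeR adjusted p = 0.0542 with run as a term, not called).

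Scrambled AMO against untreated asked what AMO delivery itself moves. edgeR called none of the 892 paired clusters and none of all clusters tested (0%), with 148 paired clusters at an unadjusted p under 0.05 (16.6%, against 18.8% of strong clusters outside pairs and 13.1% of all tested). DESeq2 called 18 paired clusters higher (2.02%) and 32 lower (3.59%). Its shares were 2.83% and 3.81% in strong clusters outside pairs, and 1.69% and 1.09% of all clusters tested. limma called no change of arm balance in the 446 pairs or in all 2570 (0% of both). In 94 of the 446 the unadjusted p was under 0.05, against 464 of all 2570 and 370 of the 2124 over 1000 nt apart. The treatment and the sequencing runs cannot be told apart in this comparison.

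U1 AMO against untreated shares the U1 AMO libraries with the first comparison, and the same limit on runs holds. edgeR called 4 paired clusters higher and 17 lower. Of all clusters tested, 4.38% were called higher and 0.506% lower, and of strong clusters outside pairs 2.65% and 2.17%, against 0.448% and 1.91% of paired clusters. Of the 4 called higher, 2 met the 5 CPM limit only through the U1 AMO libraries, and of the 17 called lower, 3 met it only through the untreated ones. In none of the 21 was the partner called, and in the 2124 pairs over 1000 nt apart 4.02% of the called clusters had a called partner. The median level of the 17 was 6.60 and 9.25 CPM with the U1 AMO, 11.96 and 9.57 CPM with the scrambled AMO, and 38.3 and 45.9 CPM untreated.

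The largest fall was the minus arm at chr8:47082264 (ATTAAA), with 12.3 and 9.25 CPM with the U1 AMO, 11.96 and 9.57 CPM with the scrambled AMO, and 67.2 and 72.9 CPM untreated (log2 fold change -2.76, SE 0.30, edgeR adjusted p = 0.0143). The minus arm at chr6:83255700 had 19.5 and 29.4 CPM with the U1 AMO, 26.9 and 35.9 CPM with the scrambled AMO, and 139 and 112 CPM untreated. The plus arm at chr15:99147447 (AAATAA) had 6.28 and 7.11 CPM with the U1 AMO, 7.49 and 7.07 CPM with the scrambled AMO, and 29.6 and 45.9 CPM untreated. In all 3 of these clusters the U1 AMO and scrambled AMO libraries lay together and apart from the untreated ones. The 2 of the 4 higher clusters that met the limit only through the U1 AMO libraries are the minus arms on chr18 and chr11 described above, and their rise is a description. The plus arm at chr19:5455945 had 11.2 and 13.7 CPM with the U1 AMO, 8.83 and 9.17 CPM with the scrambled AMO, and 0.83 and 1.21 CPM untreated. Without the U1 AMO libraries it averaged 5.009 CPM, so it met the limit only through the AMO libraries, in which it was high. The minus arm at chr8:32270071 had 52.2 and 70.6 CPM with the U1 AMO, 60.2 and 84.6 CPM with the scrambled AMO, and 18.2 and 16.8 CPM untreated. In the chr19 and chr8 clusters the scrambled AMO libraries were also above both untreated ones.

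Arm balance between U1 AMO and untreated cells was called in 16 of the 446 pairs by limma (3.59%), against 4.44% of all 2570 pairs and 4.61% of those over 1000 nt apart. The plus arm gained in 11 and the minus arm in 5. The largest shifts toward the minus arm were -4.42 at chr18:32066910 and -4.21 at chr11:74977948. These minus arms met the 5 CPM limit only through the U1 AMO libraries. The largest shift toward the plus arm was 3.15 at chr19:5455945, whose plus arm met the limit only through the AMO libraries. The shifts of these pairs are descriptions set by the way the pairs were chosen. At chr14:51546813 the plus arm had 442 and 615 CPM with the U1 AMO, 543 and 690 CPM with the scrambled AMO, and 301 and 173 CPM untreated, while its minus arm, 79 nt away, had 77.6 and 99.7 CPM with the U1 AMO, 109 and 126 CPM with the scrambled AMO, and 196 and 191 CPM untreated. The plus share of that pair was 85.1% and 86.0% with the U1 AMO, 83.2% and 84.6% in scrambled AMO libraries, and 60.6% and 47.5% untreated. At chr12:4213524, with signals on shared bases, the shift was -2.62 on the log2 scale (SE 0.43, limma adjusted p = 0.0342).

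Around the paired clusters, weaker same-strand sites were counted within 1000 nt of each peak. Only reads outside every strong cluster were used, since the pairing rule itself limits which strong clusters can stand there. The downstream side lies toward and past the partner's peak in gap pairs, and away from it in overlap pairs. Downstream, paired clusters had 0.618 and 0.596 such reads per 100 reads of the cluster with the U1 AMO, 0.639 and 0.633 in scrambled AMO libraries, and 0.562 and 0.554 untreated. In strong clusters outside pairs the values were 0.842 and 0.812 with the U1 AMO, 0.895 and 0.852 in scrambled AMO libraries, and 0.813 and 0.850 untreated. The value for paired clusters was lower in 6 of 6 libraries, with means of 0.601 ± 0.0360 in pairs and 0.844 ± 0.0305 outside (SD, n = 6). Downstream, gap pairs averaged 0.548 ± 0.0433, below the clusters outside pairs in 6 of 6 libraries, and overlap pairs 0.838 ± 0.0699, below them in 3 of 6 (SD, n = 6). Upstream, gap pairs averaged 0.655 ± 0.0239 and overlap pairs 1.36 ± 0.145, with 1.02 ± 0.0414 in clusters outside pairs (SD, n = 6), so that gap pairs were lower and overlap pairs higher in 6 of 6 libraries. Taken per cluster, the upstream median was 0.0378 in gap pairs, 0.242 in overlap pairs and 0.247 outside pairs. The excess of overlap pairs was thus in the pooled reads and not in the median cluster. These are descriptions without a test, since the same fixed clusters were measured in all 6 libraries and the level in the denominator was used to choose them. Paired clusters are also the stronger ones, with a median of 29.98 CPM against 19.8 CPM, and the ratio falls with level. At 5 to 10 CPM the median cluster had 0.366 downstream reads per 100 in pairs and 0.403 outside, at 20 to 50 CPM 0.0467 and 0.101, and from 100 CPM 0.00577 and 0.0177. The part of the level in the pooled difference was not tested.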

How the data were processed

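The data are 3′ end sequencing libraries of poly(A)-selected RNA fragmented with RNase T1, per the labels' protocols. For each library the authors deposited a list of stranded cleavage positions with raw counts of reads. A hexamer, its distance to the position in nt, and a deposited score from 0 to 10, not explained and not used here, stand beside each count. Cutadapt, Bowtie and build mm9 are named per the submitters' processing notes; versions and the filter on positions were not given in these sources. Every listed position had a hexamer, so sites without one were not analysed here. Internal priming was not assessed.

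Positions outside chromosome M were joined at 24 nt and clusters paired as described above, in Python 3.11.15 with pandas 2.3.3 and numpy 2.4.6. CPM use each library's total, chromosome M included. Counts were tested with edgeR 4.0.16 in R 4.3.3 (TMM, filterByExpr, quasi-likelihood, 3 groups, 6 libraries, 79917 clusters), and arm balance with limma 3.58.1 on log2 ratios of CPM + 0.5. A call is a p-value under 0.05 after Benjamini-Hochberg adjustment over all clusters or pairs fitted. Standard errors come from the fold change and its test statistic. Both tests were checked on simulated data. DESeq2 1.42.0, RLE scaling, no low-count filter, other pairing limits, other pseudocounts and leaving out each library were alternatives. PCR reads without molecular identifiers are not independent molecules.

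The series' design text gives 2 biological replicates per group; what the libraries share beyond that is not stated, so p-values measure the spread between these libraries. Replicate numbers of the U1 AMO and scrambled AMO groups coincide with sequencing runs in the read names of the files, and deviations from the group means correlated at r = 0.84 across 14195 clusters. With the untreated libraries, which have other runs, r was -0.337 and -0.421. Pairs named in the text are, for gap and overlap pairs, those with the 5 highest weaker arms and the 3 shortest distances; the 5 highest and 5 lowest called clusters with at least 20 CPM; the 5 largest called balance shifts each way; and 3 on each side of each limit, of which a part is given. The 7 pairs with shared signal bases, the short-spacer stretches, both pairs at 1 coordinate and the clusters under 20 CPM called with 6 libraries were chosen after their values were seen. Members and lists were chosen with earlier results of these data known. Signal layout and reads outside strong clusters were added after seeing the data.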

Additional observations from a re-analysis of the deposited data

How the results depend on the processing

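Counts of called clusters depended on the fit and on single libraries, and the cause was not tested. For U1 AMO against scrambled AMO, where 1 paired cluster was called, the replicate block gave 116 with the 4 AMO libraries (22 higher, 94 lower) and 0 with all 6 libraries; DESeq2 gave 3 (0.336%, against 1.95% of strong clusters outside pairs and 3.92% of all) and no low-count filter 2 (0.224%, against 1.5% and 0.313%). The number of calls also moved with the library left out, which leaves 1 library in a group. The median log2 fold change of paired clusters, -0.1765 with 6 libraries, then ranged from -0.276 (without scrambled AMO replicate 1) to -0.0103 (without U1 AMO replicate 1). In strong clusters outside pairs it was -0.195 and -0.0366 in these settings. For arm balance, where none was called, the replicate block over 4 AMO libraries gave 18. For scrambled AMO against untreated (0 clusters called), DESeq2 gave 50 (5.61%, against 6.65% of strong clusters outside pairs and 2.79% of all). No low-count filter gave 9 there (1.01%, against 2.24% and 0.137%). For U1 AMO against untreated (21 clusters), the replicate block with 6 libraries gave 0 (0% of all clusters tested), DESeq2 111 (12.4%, against 15.3% of strong clusters outside pairs and 12.5% of all) and no low-count filter 34 (3.81%, against 6.28% and 0.768%). The 6-library block joins the untreated libraries to the AMO libraries of the same number, although their runs differ. Leaving out 1 library gave 3 to 71, with 6 without U1 AMO replicate 1, 3 without U1 AMO replicate 2, 8 without scrambled AMO replicate 1, 71 without untreated replicate 1 and 10 without untreated replicate 2. Its 16 balance calls became 0 under the replicate block (0% of all 2570 pairs) and 7 with both arms at 10 CPM or more (2.47%, against 2.8% of all pairs tested at that level). Leaving out 1 library gave 0 to 40 of them: 0 without either U1 AMO library, 1 without scrambled AMO replicate 1, 4 without scrambled AMO replicate 2, 40 without untreated replicate 1 and 1 without untreated replicate 2.

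Differences between U1 AMO and scrambled AMO of the values per library were small, and several changed sign. The difference in the share of paired reads in overlap pairs (-0.313 percentage points) was 0.194 within replicate number 2 and ranged from -0.888 (without scrambled AMO replicate 2) to 0.261 (without scrambled AMO replicate 1). The difference in the weaker arm's median share (0.0186 points) was -0.221 at a limit of 500 nt, -0.479 at 2000 nt, -0.689 at 10 CPM, -0.0202 when joining at 12 nt, -0.0623 without AAAAAA clusters and -0.131 within replicate number 1, and ranged from -0.546 (without scrambled AMO replicate 2) to 0.583 (without scrambled AMO replicate 1), with -0.396 without U1 AMO replicate 1. All same-strand reads downstream, strong clusters included, differed by -0.11 per 100, with a range of -0.223 (without scrambled AMO replicate 2) to 0.00396 (without scrambled AMO replicate 1). Upstream the difference was 0.673, -0.303 within replicate number 2, and ranged from -0.706 (without U1 AMO replicate 1) to 2.05 (without U1 AMO replicate 2). In fits without a run term, the fall at chr17:23812414 had log2 fold changes of -1.72 (without scrambled AMO replicate 2) to 0.364 (without scrambled AMO replicate 1). The difference in the share of reads in paired clusters (-0.297 points) kept its sign in each setting tried but ranged from -0.541 (without scrambled AMO replicate 1) to -0.0532 (without scrambled AMO replicate 2), with -0.527 without U1 AMO replicate 2 and -0.0671 without U1 AMO replicate 1.

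Each group has 2 libraries, and the untreated ones cannot be told apart from their runs. The shallowest library, U1 AMO replicate 1, has 15752080 reads.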
